A study of Mus musculus with 50 samples.

Results

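The 50 genes described here are the Wnt ligands, their receptors and coreceptors, the R-spondins and their receptors, the secreted inhibitors and a few target or feedback genes. The rule takes them by name and uses no measured value, from a list drawn up with earlier results of these data known. All 50 were found among the 21954 genes of the table: 16 ligands, 10 Frizzled receptors, 2 coreceptors, 4 R-spondins, 3 R-spondin receptors, 10 secreted inhibitors and 5 target or feedback genes.

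Poly(A) RNA of the distal terminal phalanx (P3), with the mixed cell types around its wound bed, was sequenced after amputation through P3 of the third hindlimb digit in young adult male C57Bl/6 mice. The 29 non-regenerative (NR) digits had labelled amputation levels of 60 to 80 percent. They were collected at 0, 3, 6, 12 and 24 h and at 3, 7, 14 and 21 d (3 digits each, 5 at 7 d). Of these NR digits 12 were at or below 67 percent, including all 3 digits of 12 h (64, 64 and 67 percent). No 12 h digit was thus above 67 percent, the study's own limit for this class. The 12 intermediate (INT) digits had levels of 41 to 55 percent and were collected at 0 h, 24 h, 14 d and 21 d (3 digits each). A level is the percentage of P3 that was removed, the labels name no mutant allele or drug for any group, wounds closed without sutures, and the 0 h digits, taken at the time of amputation, served as controls. Digits of the regenerative class were not analysed here, so every value below concerns wounds of the NR or the INT kind.

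Wnt proteins are lipid-modified ligands that bind a Frizzled receptor together with the coreceptor Lrp5 or Lrp6, which stabilizes beta-catenin and lets it act with TCF/LEF factors on target genes. Several Wnts signal instead through beta-catenin-independent branches that control cell polarity and movement. R-spondins, through the receptors Lgr4, Lgr5 and Lgr6, keep Frizzleds on the cell surface. Secreted inhibitors bind the ligands (Sfrp and Wif1 proteins), bind the coreceptors (Dkk1 and Dkk2) or remove the lipid from the ligand (Notum). The divergent Dkk3 is listed with the inhibitors by its family, and no coreceptor binding is implied for it. In the digit tip the pathway is known for its role in the nail epithelium and in the formation of bone.

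The proximal promoters of members that were higher late after amputation are printed because these genes moved together between phases of the response, as given further on. RefSeq windows of 250 bases before the transcript start (GRCm38.p6) were matched by symbol for 34 of the 50 members and for 5 of the 8 late-risen ones, and 4 of those genes are shown on the gene's own strand, 5′ to 3′. Capitals mark the letters CTTTGA, the core recognized by TCF/LEF factors, which was searched on both strands (TCAAAG on the other).
Wnt5b, chr6:119449387-119449636, minus strand: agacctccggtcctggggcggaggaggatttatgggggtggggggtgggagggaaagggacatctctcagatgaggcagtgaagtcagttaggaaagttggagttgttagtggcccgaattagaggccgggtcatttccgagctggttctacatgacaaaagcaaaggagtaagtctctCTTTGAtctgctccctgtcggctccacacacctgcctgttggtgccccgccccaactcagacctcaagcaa
Wnt9a, chr11:59306680-59306929, plus strand: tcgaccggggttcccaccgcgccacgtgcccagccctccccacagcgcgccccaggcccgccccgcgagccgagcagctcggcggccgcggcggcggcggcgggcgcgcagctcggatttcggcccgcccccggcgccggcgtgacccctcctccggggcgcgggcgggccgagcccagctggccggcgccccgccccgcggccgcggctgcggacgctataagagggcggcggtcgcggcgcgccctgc
Sfrp2, chr3:83766071-83766320, plus strand: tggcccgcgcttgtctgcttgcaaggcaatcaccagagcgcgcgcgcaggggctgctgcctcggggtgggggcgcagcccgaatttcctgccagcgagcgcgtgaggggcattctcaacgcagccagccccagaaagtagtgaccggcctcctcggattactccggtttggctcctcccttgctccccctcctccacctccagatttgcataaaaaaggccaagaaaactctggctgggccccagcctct
Dkk2, chr3:132085042-132085291, plus strand: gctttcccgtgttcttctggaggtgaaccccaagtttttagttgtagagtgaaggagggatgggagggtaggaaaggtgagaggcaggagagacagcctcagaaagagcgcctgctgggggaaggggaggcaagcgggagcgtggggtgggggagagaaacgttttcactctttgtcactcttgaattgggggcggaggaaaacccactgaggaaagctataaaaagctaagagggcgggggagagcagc

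Of these 4 windows, that of Wnt5b held the core once, at position -71 from its start, and this was 1 of 3 annotated starts of the gene. The printed start lies within the gene, whose outermost start has its window at chr6:119544348-119544597. The windows of the other Wnt5b starts held no core. The window of Nkd1, a late-risen member that is not printed, held none either. Over all members the core stood in 6 of 41 windows (14.6%), and over all genes in 4544 of 32851 windows of the same length (13.8%). The share among the members was close to that among all genes, and a match of these letters is a description of the window only.

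The depth of the 41 digits ran from 1468749 to 13011782 expected counts per library. A pair of libraries stood apart. The NR 14 d replicate 2 had the lowest normalization factor (0.651, against 0.868 to 1.16 in the 39 libraries outside this pair), and its normalized TPM summed to 3362791, against 795701 to 1434851 in the other digits, so levels in normalized TPM are raised in that library. The NR 7 d replicate 2 had a factor of 0.812, counts in 10072 genes where the best library had 16821, and counts in 22 of the 50 members where the best library had 49. Dates on the labels, which are not said to be those of surgery, collection or another step, fell in an earlier period (24 digits) and a later one (17 digits), with all NR 3 h, NR 12 h and INT 21 d digits in the earlier and all NR 21 d digits in the later. Feet of 1 mouse could give digits of different groups, the labels do not tie every digit to a mouse, and 5 pairs of digits of different groups carry the same animal mark, date and side. A pair of these lies within the NR 12 h against 0 h comparison (NR 0 h replicate 1 and NR 12 h replicate 3), and another within INT against NR at 14 d. The p-values therefore measure only the spread between these digits.

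To compare levels between genes, the deposited TPM, a measure per transcript length that the authors scaled between libraries (normalized TPM), was used. The median over the 41 digits was 10 or more for 13 members, from 1 to 10 for 27 and under 1 for 10, while 37.7% of all genes reached 10. The ligands were led by Wnt4 (median 45.6 normalized TPM), a ligand of many epithelia, and Wnt5a (41.4), the best known ligand of the beta-catenin-independent branches. No other ligand reached 10, and the receptors above it were Fzd6 (37.0), Fzd7 (16.3) and Fzd1 (12.9).

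Both coreceptors were among the leading members, Lrp5 at 29.8 and Lrp6 at 27.5 normalized TPM, and Lgr4, the broadly expressed R-spondin receptor, stood at 29.1. The R-spondins themselves were low, with medians from 0.525 to 2.16. Of the secreted inhibitors, Dkk3 (29.7), a divergent Dickkopf protein, Wif1 (26.5), which binds Wnt ligands, and the Frizzled-related proteins Sfrp1 (23.9) and Sfrp2 (17.6) were the most abundant. Of the feedback genes, Nkd2 (19.7), a dishevelled-binding protein, led. Neighbours in this order overlapped widely over the digits, so the order is that of the medians alone. At the low end, Wnt1 and the inhibitor Dkk1 had a median of 0, and Wnt1 had 3 counts or fewer in every digit, no more than the upper limit that a count of 0 allows. A total of 15 members had more than 3 counts in all 41 digits.

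**Figure D1:**
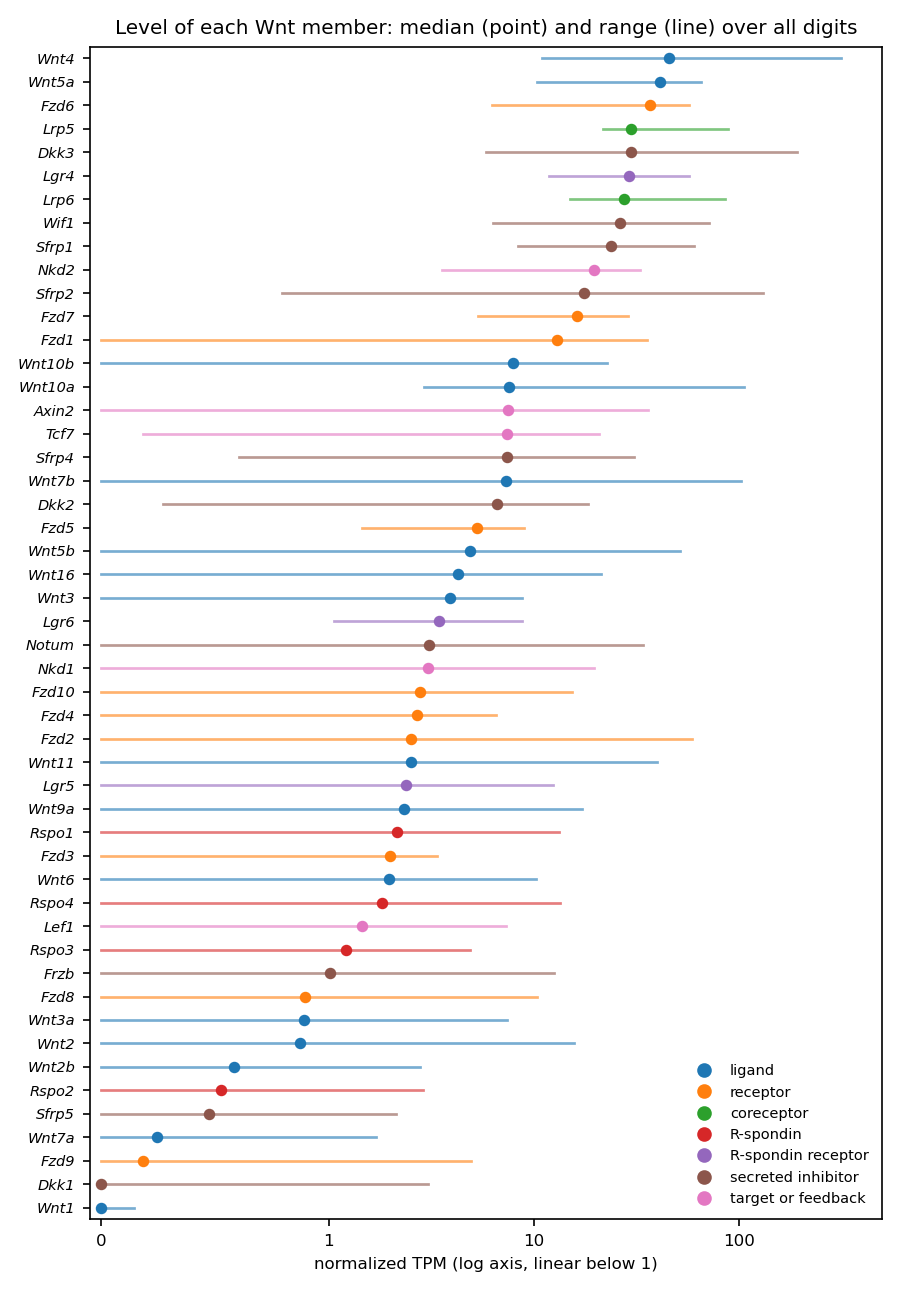
Level of each of the 50 members in normalized TPM on a log axis (linear below 1); the point is the median over 41 digits, the line runs from the lowest to the highest digit, and colour gives the role. Wnt4 (45.6) and Wnt5a (41.4) have the highest medians, and Wnt1 and Dkk1 have a median of 0.

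Values per digit are given from here on as counts scaled to a common library size (TMM-normalized CPM), which compares 1 gene between digits and not genes with each other. A change was called where the edgeR quasi-likelihood test gave a Benjamini-Hochberg adjusted p under 0.05 over all genes tested and the group means differed more than 2-fold. Over these comparisons 16 members were called at least once and 34 in none. Where digits of a named member are said not to overlap between groups, this describes its values only. Such members were mostly chosen by their calls or differences, and the share of all genes without overlap was not counted. Lack of overlap therefore adds no evidence to the test. In whole digits, fewer cells of a type and less RNA per cell cannot be told apart, and this holds for every result below.

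The first question was which members changed across the 9 times of the NR response. A total of 5 of 47 tested members were called (10.6%), against 7.6% of all genes: Dkk3, the receptor Fzd2, the R-spondin receptor Lgr6, the ligand Wnt9a and the Wnt-binding inhibitor Sfrp2. The edgeR adjusted p was 1.41e-07 for Dkk3 and 5.25e-04 for Fzd2. It was 8.19e-03 for Lgr6, 0.0338 for Wnt9a and 0.0381 for Sfrp2 in the same edgeR test. The remaining 3 members, Wnt1, Sfrp5 and Dkk1, had counts too low to be tested.

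Dkk3 (chromosome 7, 112116017 to 112159057, GRCm38) had the clearest time course. The 0 h digits measured 47.1, 47.7 and 58.7 CPM, and the 12 h digits 12, 29 and 14.3 CPM. At 7 d the digits measured 115, 160, 171, 202 and 138 CPM, at 14 d 366, 183 and 229 CPM, and at 21 d 227, 114 and 344 CPM. The 12 h digits were all below the 0 h digits, and all digits from 7 d on were above every earlier NR digit.

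Fzd2 (chromosome 11, 102604396 to 102608058), a receptor used by both branches of the pathway, followed a similar course at a lower level. Its 0 h digits measured 3.86, 6.07 and 4.81 CPM and its 24 h digits 1.1, 1.56 and 0.539 CPM. The 14 d digits measured 13.8, 79.1 and 18.9 CPM and the 21 d digits 11.8, 15.7 and 13.2 CPM. The highest of these, 79.1 CPM, was in the NR 14 d library that stood apart, and the next highest NR digit was at 18.9 CPM.

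Lgr6 (chromosome 1, 134983301 to 135105276), an R-spondin receptor of epidermal stem cells, was lowest at 12 and 24 h. It measured 27.4, 15.8 and 17.2 CPM at 0 h and 26.9, 35.4 and 28.5 CPM at 3 h, then 4.36, 9.31 and 6.84 CPM at 12 h and 6.98, 7.79 and 4.85 CPM at 24 h. The 12 h and 24 h digits did not overlap the 0 h and 3 h digits. At 21 d the values of 11.2, 13.5 and 7.86 CPM were still below all 0 h digits, a difference that was not called.

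**Figure D2:**
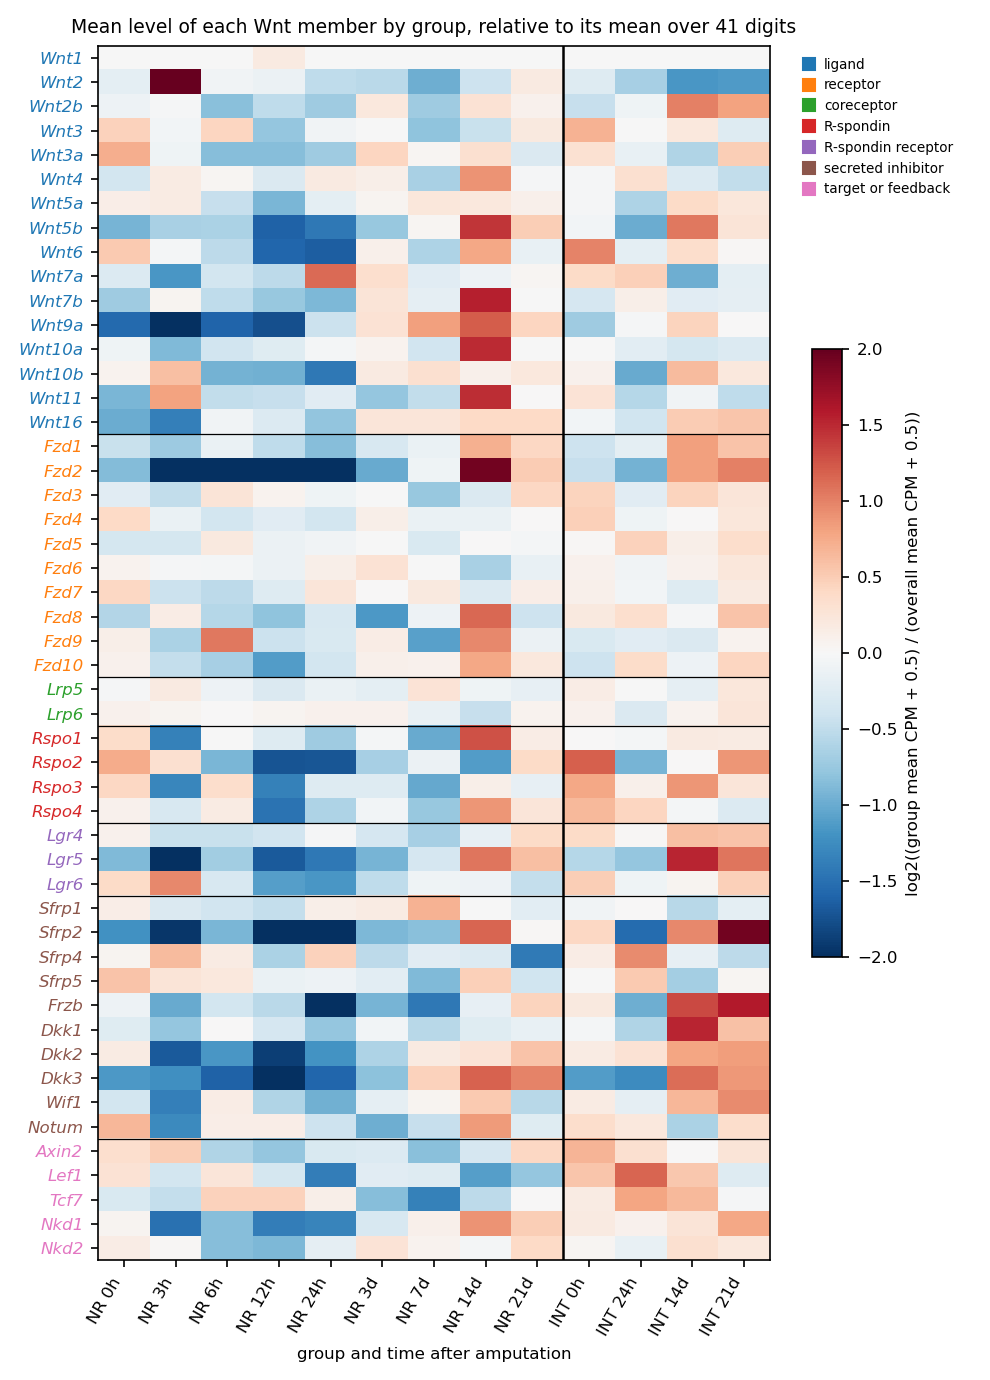
Mean CPM of each member in each group relative to its mean over 41 digits, as log2 after adding 0.5 CPM to both, with NR groups left of the black line and INT groups right of it, and members ordered by role. Dkk3 and Fzd2 are below their means at 12 and 24 h in NR digits and above them at 14 and 21 d in both kinds of digit.

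The early loss was measured by comparing each NR time with the same 3 NR digits of 0 h, so the 8 comparisons share their controls. At 12 h, 8 of 41 tested members were called and all were lower, where 11.4% of all genes were called and 4.64% were lower. All 12 h digits were labelled at or below 67 percent. At 24 h, 8 of 44 were called and all were lower, where 10.7% of all genes were called and 5.14% were lower. Over the 8 times, 11 members were called at 1 or more and all were lower, against 15.7% of all genes called and 7.48% lower. The median log2 fold change over members tested was -0.74 at 12 h and -0.47 at 24 h, and over all genes it was -0.03 and -0.04.

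Of the ligands, Wnt6 (log2 fold change -2.93 at 12 h and -3.08 at 24 h), an epithelial ligand, fell at both times. Its 0 h digits measured 2.94, 3.13 and 4.04 CPM, and its 12 h digits 0, 0.786 and 0.391 CPM. Wnt3, a ligand of the beta-catenin branch, fell at 12 h (-1.31) and Wnt10b, a ligand linked to hair follicle and bone, fell at 24 h (-1.62). The Wnt3 call held in 1 and the Wnt10b call in 0 of the 6 fits that left out 1 digit. That of Wnt6 held in 2 of 6 at each time. The abundant Wnt4 had 0 h values of 71.4, 109 and 92.0 CPM and 24 h values of 147, 126 and 124 CPM, and was called at neither time.

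Rspo2, an R-spondin, fell at both times to near the counting limit. The 3 digits of 0 h held 71 counts in all and those of 12 h held 3, a ratio of 16.8-fold lower with an exact 95% counting interval of 5.51 to 83.2, and the call held in 2 of the 6 fits that left out 1 digit. At 24 h there were again 3 counts, 21.2-fold lower with an interval of 6.97 to 105, and the call held in 4 of 6. Lgr6 fell by 1.53 at 12 h and by 1.61 at 24 h on the log2 scale, calls that held in 3 of 6 and 6 of 6. A ligand and a receptor of the R-spondin system were thus both lower, while Lgr4 and Lgr5 were not called.

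Among the secreted inhibitors, Sfrp2 fell by 1.27 at 12 h and by 2.10 at 24 h on the log2 scale. Its calls held in 1 and 2 of the 6 fits that left out 1 digit. Dkk2 (-2.17) and Dkk3 (-1.45) fell at 12 h, and each call held in 2 of 6 such fits. Frzb, another Frizzled-related Wnt-binding protein, held 56 counts at 0 h and 3 at 24 h, 16.7-fold lower with an interval of 5.44 to 83.6, a call that held in 2 of 6 such fits. The feedback gene Nkd1 fell at both times (-1.62 and -1.55), and Fzd2 fell at 24 h (-2.18). The Nkd1 calls held in 1 and 2 of 6 such fits, and that of Fzd2 in 2 of 6. The target gene Axin2, which encodes a scaffold of the beta-catenin destruction complex, measured 9.93, 17.6 and 16.1 CPM at 0 h and 9.02, 7.31 and 11.3 CPM at 24 h, and was not called.

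The members called at 12 h and at 24 h shared Lgr6, Nkd1, Rspo2, Sfrp2 and Wnt6, 5 of 8 at each time. No member was called at 3 h, 6 h, 3 d, 7 d, 14 d or 21 d by edgeR, where the shares of all genes called were 0.0%, 4.85%, 0.723%, 0.0537%, 0.0% and 0.452%. At these times 5, 14, 5, 2, 10 and 10 members had an unadjusted p under 0.05, of 39, 42, 43, 40, 45 and 45 tested. Of all genes, 1362 of 12562, 3368 of 13168 and 1477 of 13286 had such a p at 3 h, 6 h and 3 d. At 7 d, 14 d and 21 d these were 566 of 13046, 1044 of 13567 and 987 of 13712. DESeq2 called 0, 5, 1, 1, 5 and 4 members. Its shares of all genes were 1.56%, 8.45%, 3.39%, 1.23%, 2.6% and 1.84%. Over all 8 times together, DESeq2 called 19 members. With a single fit over all 41 digits in place of separate fits, the 8 calls at 12 h became 2 (Lgr6 and Dkk3). The 8 at 24 h became 1 (Lgr6), while 7 d, 14 d and 21 d gained 1, 3 and 1. These gains were all higher than 0 h (Dkk3 at each, with Fzd2 and Wnt9a at 14 d). Of all genes the single fit called 2.81%, 2.21%, 1.09%, 4.87% and 0.22% at 12 h, 24 h, 7 d, 14 d and 21 d. At 12 h the 8 calls became 1 without NR 0 h replicate 2 or 3 or NR 12 h replicate 3, and 0 without NR 12 h replicate 1. At 24 h they became 1 without NR 0 h replicate 2 or 3, 2 without NR 24 h replicate 1 and 5 without NR 24 h replicate 2 or 3. All 12 h digits had dates in the earlier period, as did 1 of the 3 digits of 0 h, so no comparison of 12 or 24 h with 0 h within a period had replicates on both sides, and the single fit with the period as a term gave the same counts.

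Neutrophil markers moved with this early fall. The summed level of 6 neutrophil genes ran from 20.1 to 26.4 normalized TPM at 0 h, from 406 to 1135 at 12 h and from 1134 to 1296 at 24 h. Of the 5 tested at 12 h all 5 rose, with Ly6g, a defining gene, listed at 0 in the 12 h digits. The 6 fibroblast genes summed to 1285 to 2202 at 0 h, 780 to 1317 at 12 h and 563 to 1237 at 24 h, with 0 and 2 of 6 called lower, and the 6 keratinocyte genes to 26882 to 55507, 24806 to 30543 and 28063 to 49868. Markers of nerve sheath and smooth muscle were lower: 5 Schwann cell genes summed to 43.0 to 81.9 at 0 h, 20.6 to 41.1 at 12 h and 35.7 to 38.2 at 24 h (2 of 5 called lower at each time), and 5 smooth muscle genes to 308 to 855, 128 to 512 and 243 to 289 (0 and 2 of 5 called lower). The part of these cell types in the fall of the Wnt members was not tested.

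**Figure D3:**
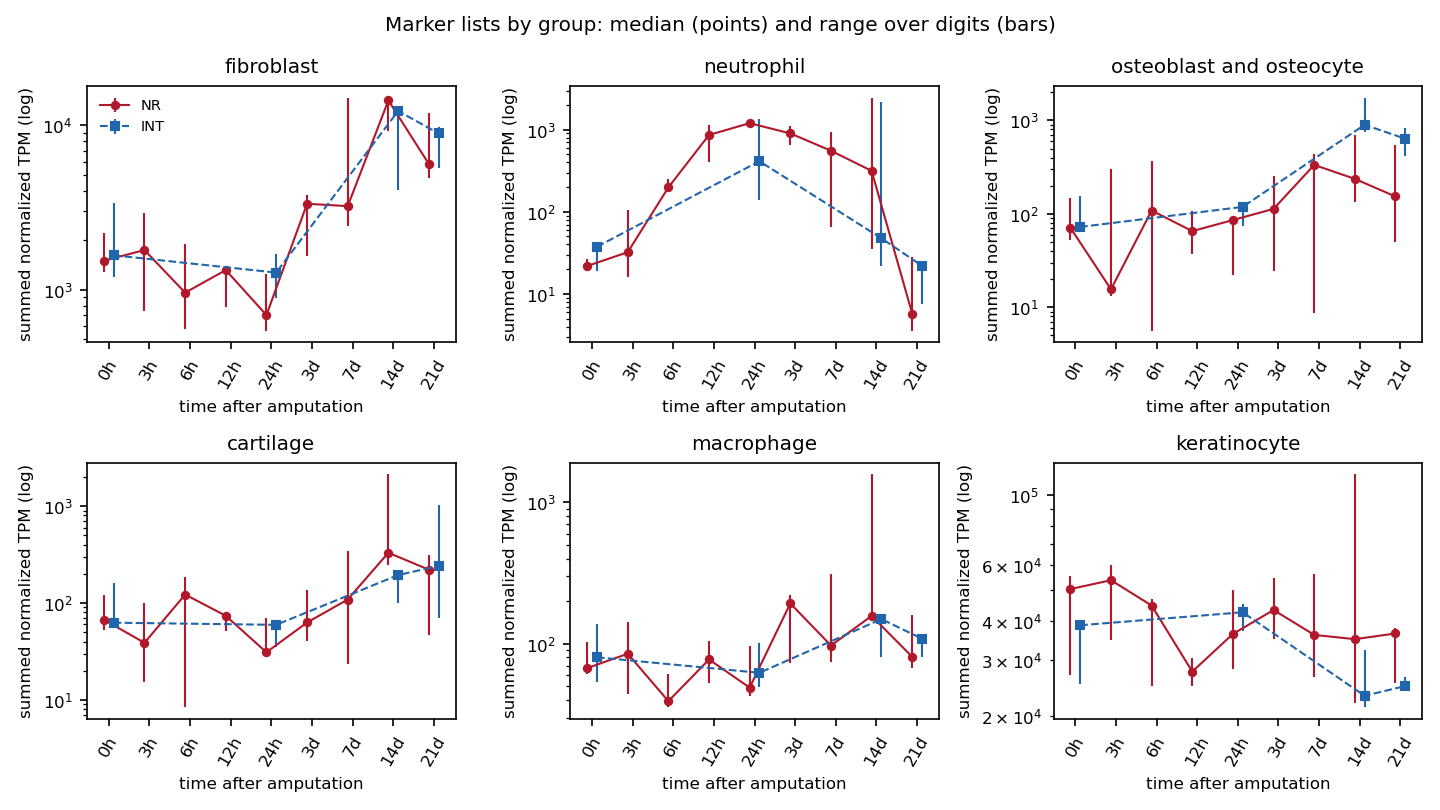
Summed normalized TPM (log axis) of 6 cell type marker lists against time, NR digits in red and INT digits in blue, with the median as a point and the range over digits as a bar. The NR median of the neutrophil markers is highest at 24 h (1202), and the fibroblast markers are above their 0 h range in every digit of 14 and 21 d of both kinds.

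The second phase was measured by comparing the 11 late NR digits (7, 14 and 21 d) with the 9 acute ones (6, 12 and 24 h). A total of 8 of 47 tested members were called (17%) and all 8 were higher late, where 9.7% of all genes were called and 5.92% were higher. They were the ligands Wnt5b and Wnt9a, the receptor Fzd2, the R-spondin receptor Lgr5, the inhibitors Sfrp2, Dkk2 and Dkk3, and the feedback gene Nkd1. The log2 fold change was positive for 36 of the 47, and its median was 0.66 against 0.06 over all genes. Every role except the coreceptors and the R-spondins held at least 1 called member.

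Dkk3 and Fzd2 did not overlap between phases. Dkk3 ran from 12 to 43.7 CPM (median 34.9) in the acute digits and from 114 to 366 CPM (median 183) in the late ones, a log2 difference of 2.82 ± 0.22 (SE; edgeR adjusted p = 1.49e-09). Fzd2 ran from 0 to 2.75 CPM (median 1.1) and from 3.82 to 79.1 CPM (median 13.2), a log2 difference of 3.68 ± 0.53 (edgeR adjusted p = 2.43e-05). These were the smallest adjusted p-values among the members.

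The ligands Wnt5b and Wnt9a overlapped between phases at their low end. Wnt5b (chromosome 6, 119432531 to 119544347), a relative of Wnt5a that acts in cartilage, had acute values of 0.207 to 6.76 CPM (median 2.88) and late values of 0 to 39.6 CPM (median 12.2), with 8 of 11 late digits above the highest acute digit. Its log2 difference was 2.03 ± 0.58 (edgeR adjusted p = 0.0167). The gene overlaps the protein-coding Fbxl14 on the other strand, and the reads of such a pair are uncertain where counting did not use strand.

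Wnt9a (chromosome 11, 59306928 to 59333552), a ligand of developing joints and cartilage, ran from 0.773 to 5.41 CPM acutely (median 1.34) and from 0 to 21.1 CPM late (median 9.01), again with 8 of 11 late digits above. The log2 difference was 2.34 ± 0.59 (edgeR adjusted p = 7.24e-03). Its 3 d digits, at 8.52, 6.0 and 5.23 CPM, were already above all 0 h digits at 2.76, 1.27 and 0.328 CPM. The late value of 0 in Wnt5b and in Wnt9a came from the NR 7 d library with few detected genes.

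Lgr5 (chromosome 10, 115450311 to 115587780), an R-spondin receptor and a marker of several epithelial stem cells, measured 0.773 to 5.95 CPM in the acute digits (median 1.87) and 0 to 21.2 CPM in the late ones (median 8.58). Its log2 difference was 1.89 ± 0.55 (edgeR adjusted p = 0.0205), with 9 of 11 late digits above every acute digit. It overlaps the protein-coding A930009A15Rik. Its relative Lgr6 had a log2 difference of 0.66 and was not called.

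Sfrp2 (chromosome 3, 83766321 to 83774316) overlapped more between phases. Acute values ran from 0.962 to 45.4 CPM (median 4.77) and late values from 1.88 to 107 CPM (median 34.6), and 4 of 11 late digits stood above the highest acute one. The log2 difference was 2.38 ± 0.56 (edgeR adjusted p = 4.22e-03) and rose to 3.40 without the NR 6 h digit at 45.4 CPM, where the other 6 h digits were at 1.73 and 2.43 CPM.

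Dkk2 (chromosome 3, 132085292 to 132180304), an inhibitor that binds Lrp5 and Lrp6, ran from 1.87 to 9.70 CPM (median 7.81) acutely and from 9.14 to 41.3 CPM (median 18.6) late. The log2 difference was 1.83 ± 0.40 (edgeR adjusted p = 2.41e-03), and 10 of 11 late digits were above all acute ones. Its 0 h digits, at 10.7, 22.6 and 22.5 CPM, lay within the late range. Nkd1 (chromosome 8, 88521354 to 88594884), which binds dishevelled and dampens the signal, ran from 1.45 to 4.06 CPM and from 0.291 to 22.6 CPM, a log2 difference of 1.85 ± 0.53 (edgeR adjusted p = 0.0179).

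**Figure D4:**
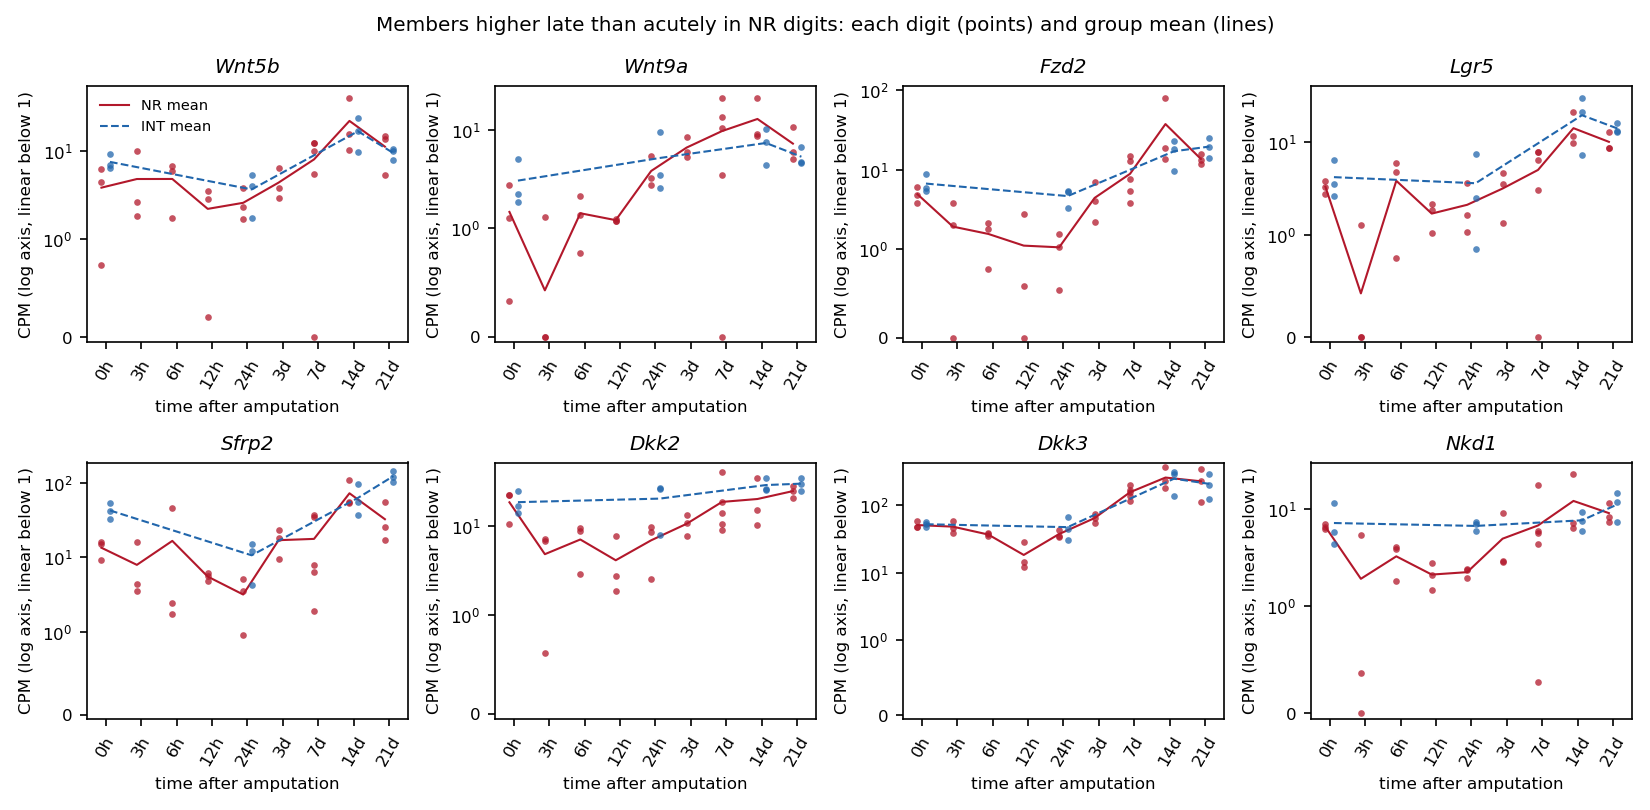
CPM (log axis, linear below 1) of the 8 members higher late than acutely in NR digits against time; points are single digits and lines join group means, NR in red and INT in blue. Dkk3 and Fzd2 have every NR digit from 7 d on above every NR digit of 6, 12 and 24 h.

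Other members moved less than these 8 or varied more. Tcf7, a TCF-family factor and target, had the largest negative difference among members with an unadjusted p under 0.05 (-1.05, edgeR adjusted p = 0.0669). Nkd2 differed by 0.78 (edgeR adjusted p = 0.044) and missed the 2-fold limit. Rspo2 differed by 2.21 (edgeR adjusted p = 0.081) and Wnt5a by 0.70, neither called. In all, 17 of the 47 had an unadjusted p under 0.05, as did 4131 of 14434 genes.

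**Figure D5:**
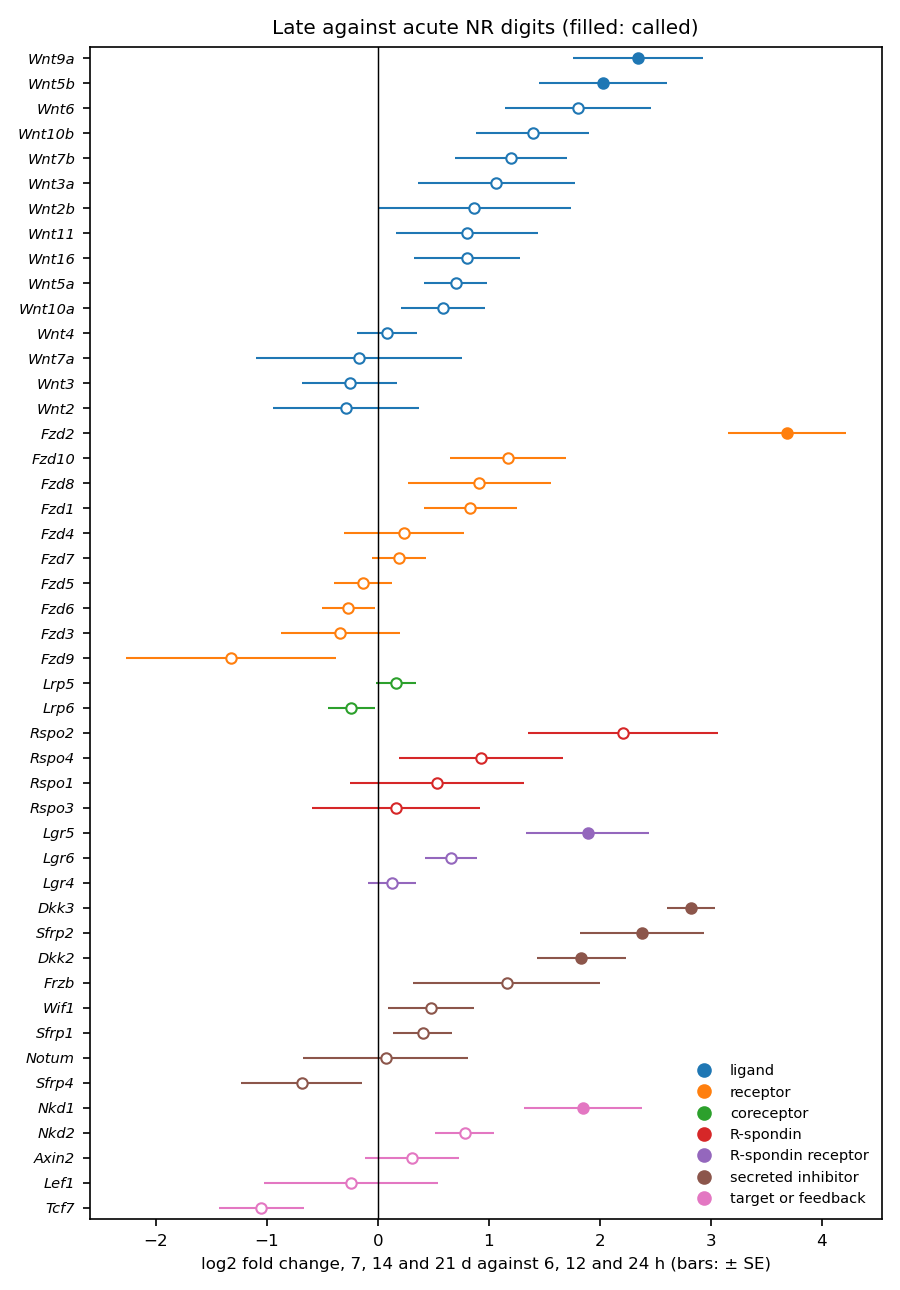
Log2 fold change of late (7, 14 and 21 d) against acute (6, 12 and 24 h) NR digits for the 47 members tested, with bars of 1 SE, coloured by role and filled where called. All 8 filled points lie above 0, from 1.83 for Dkk2 to 3.68 for Fzd2.

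Several calls changed with the digits and terms used. With the label date period as a term 6 of the 8 were called, Wnt5b and Nkd1 being lost, and within the earlier period alone 6 were called, with Wnt5b at 1.97 and Nkd1 at 0.70. Within the later period alone, which held 2 acute digits, none were called (2 of 15367 genes were) and all 8 log2 differences were positive, from 1.04 to 3.5. With the 17 NR digits above 67 percent only, Lgr5, Dkk2 and Nkd1 were lost and Fzd1 was added. This setting changed level and sample number together. It also left no 12 h digit, so its acute phase was 6 and 24 h alone. Without the NR 7 d replicate 2, the library with few detected genes, 13 members were called, as were 1855 of 14536 genes.

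Connective tissue markers were higher in the late digits too. The 6 fibroblast genes summed to 563 to 1898 normalized TPM in the acute digits (median 958) and 2429 to 14703 in the late ones (median 7526), with 4 of 6 called higher. Cartilage genes summed to 8.40 to 185 and 23.6 to 2137 (3 of 5 called higher) and macrophage genes to 35.6 to 105 and 67.5 to 1580 (3 of 6 higher). Neutrophil genes summed to 188 to 1296 and 3.56 to 2461, with 3 of 5 called lower. Without the NR 14 d library of raised normalized TPM the highest late sums were 344 for cartilage and 313 for macrophage genes, and those of fibroblast and neutrophil genes were the same. No gene of these lists was at 0 in either phase, and the part of these cell types in the late rise was not tested.

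The rest of the pathway was described with 60 further genes. In the late against acute comparison 3 of 59 tested were higher and none lower, where 5.92% of all genes were higher. The count of 3 was close to that share. They were Porcn (log2 difference 1.04), which acylates Wnts for secretion, and Pygo1 (1.98), a nuclear partner of beta-catenin. The other was Wisp1 (2.51), a matrix protein and target. None of the 15 cytoplasmic genes, which include those of the destruction complex and the dishevelleds, was called, at a median of -0.14. Across NR times 5 of 59 were called (Wisp1, Ptk7, Pygo1, Myc and Kremen1), against 7.6% of all genes. At 12 h 1 of 55 was higher (Myc) and 6 were lower. At 24 h 2 of 58 were higher (Vangl1 and Wisp1) and 5 were lower. Of all genes, 11.4% were called at 12 h (4.64% lower) and 10.7% at 24 h (5.14% lower). Sostdc1 and Apcdd1, inhibitors of the pathway, and Vangl2 and Tnfrsf19 were lower at both times.

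The INT digits, of which a smaller part was removed, were compared over their own 4 times. A total of 6 of 46 tested members were called over time (13%), against 4.62% of all genes: Wnt5b, Fzd1, Fzd2, Sfrp2, Sfrp4 and Dkk3. The edgeR adjusted p ran from 2.32e-03 for Sfrp2 and 2.80e-03 for Dkk3 to 0.0484 for Sfrp4, a Frizzled-related inhibitor, and with the label date period as a term 4 members were called. Sfrp4 was the only one of these 6 with its highest mean at 24 h (16.5, 14.5 and 25.5 CPM, against 6.99, 9.09 and 15.7 CPM at 0 h and 7.25, 6.58 and 5.67 CPM at 21 d).

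Each INT time was set against the same 3 INT digits of 0 h. At 24 h edgeR called no member of 42 and 0.0152% of all genes. An unadjusted p under 0.05 was found for 5 members and for 2034 of 13172 genes. DESeq2 called 2 members and 2.66% of all genes. At 14 d 2 of 43 were called, both higher (1.68% of all genes, 1.49% higher). At 21 d 5 of 44 were called, all higher (1.39% of all genes, 1.23% higher). Over the 3 times 5 of 44 members were called, against 2.13% of all genes, and all were higher, against 1.86% of all genes. Without the INT 0 h replicate 2 none were called at any time, and a single fit over all 41 digits gave 1, with or without the period as a term. The 2 calls at 14 d became 5 without INT 14 d replicate 1, 1 without INT 0 h replicate 1 or INT 14 d replicate 3, and 0 without INT 14 d replicate 2, and the 5 at 21 d became 2 or 3 when any digit other than INT 0 h replicate 2 was left out.

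Dkk3 rose at both late times. The INT 0 h digits measured 56.9, 53.6 and 47.2 CPM, the 14 d digits 136, 317 and 296 CPM and the 21 d digits 204, 125 and 297 CPM. The log2 difference was 2.26 ± 0.31 at 14 d (edgeR adjusted p = 0.0109) and 2.0 ± 0.28 at 21 d (edgeR adjusted p = 0.0075), with no overlap with 0 h. In the NR digits the same differences were 2.36 ± 0.50 and 2.15 ± 0.37, not called (edgeR adjusted p = 0.228 and 0.0758).

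Fzd1, a receptor close to Fzd2 and Fzd7, rose at 14 d (1.26 ± 0.19) and 21 d (1.0 ± 0.15). It measured 26.5, 28.1 and 27.0 CPM at 0 h, 51.4, 67.4 and 75.2 CPM at 14 d and 61.9, 51.1 and 49.5 CPM at 21 d. The late digits did not overlap those of 0 h. In NR digits it measured 22.4, 27.1 and 30.1 CPM at 0 h and 50.9, 45.9 and 49.2 CPM at 21 d, a difference of 0.86 ± 0.17 that was not called (edgeR adjusted p = 0.113).

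At 21 d Fzd2 (1.57), Lgr5 (1.76) and Sfrp2 (1.56) also rose in INT digits. Fzd2 measured 5.4, 8.83 and 5.81 CPM at 0 h and 25.3, 19.3 and 13.8 CPM at 21 d. Lgr5 measured 3.57, 6.36 and 2.62 CPM at 0 h and 16.2, 13.2 and 12.9 CPM at 21 d. All 3 genes had every 21 d digit above every 0 h digit. The calls of Fzd2 and Lgr5 were lost whichever of the 6 digits was left out, while that of Sfrp2 held in 5 of 6.

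Osteoblast and cartilage markers moved with these changes. The 7 osteoblast and osteocyte genes summed to 69.6 to 157 normalized TPM at INT 0 h, 754 to 1754 at 14 d and 412 to 834 at 21 d. All 7 were called over INT time. Over NR time 0 of 7 were called, with sums of 52.8 to 149 at 0 h, 135 to 699 at 14 d and 49.4 to 548 at 21 d. The direct comparison of INT with NR digits over the shared times called 0 of these 7, as did that of the time courses. These calls therefore show no difference between the kinds of digit. Of the 5 cartilage genes 4 were called over INT time, and they summed to 61.8 to 162, 101 to 208 and 70.1 to 1026. The fibroblast genes summed to 1187 to 3374, 4034 to 12548 and 5508 to 9796. The part of these cell types was not tested. Of the 60 further pathway genes 1 of 58 tested, Wisp1, was called over INT time, against 4.62% of all genes.

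The INT and NR digits were then compared directly. No member was called by edgeR at 0 h, 24 h, 14 d or 21 d (of 45, 40, 42 and 45 tested), where 0.0%, 0.0%, 0.0% and 0.648% of all genes were called, and 0.627% at 1 or more of these times. At these times 2, 10, 1 and 4 members had an unadjusted p under 0.05. Of all genes tested, such a p was found in 491 of 13500, 1472 of 13024, 270 of 13421 and 1927 of 13736. DESeq2 called 5 members in all (Lef1, Nkd1, Sfrp2, Wif1 and Wnt7b), and 0.126%, 1.19%, 0% and 1.49% of all genes. Over the 4 shared times together edgeR and DESeq2 called none of 49, with 9 at an unadjusted p under 0.05, and none of 49 in the test for a difference in time course (5 at an unadjusted p under 0.05, 0 by DESeq2). No gene at all was called in either edgeR test (0.0% and 0.0%). An unadjusted p under 0.05 was found for 874 and 1048 of 14768 genes. A missed threshold does not show that the members were alike. In simulated data the test for a difference in time course recovered 0 of 200 genes changed by a log2 of 1.5. In both simulations the changed genes left out those of low counts. The test over the shared times recovered 178 of 200.

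The member with the smallest p in that comparison was Sfrp2, at a log2 difference of 1.29 ± 0.31 in favour of INT (edgeR adjusted p = 0.787). Its NR 0 h digits measured 15.8, 15.0 and 9.29 CPM and its INT 0 h digits 32.3, 41.7 and 52.9 CPM. At 21 d the NR digits measured 54.7, 25.1 and 16.9 CPM and the INT digits 144, 102 and 119 CPM. The INT digits lay above the NR digits at both times without overlap, while at 14 d (NR 107, 52.8 and 55.2 CPM, INT 37.1, 95.1 and 54.5 CPM) they overlapped. All INT 21 d digits had label dates in the earlier period and all NR 21 d digits in the later one, so kind of digit and period cannot be told apart at 21 d, and with the period as a term the shared times again gave 0 members.

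Lef1, a TCF/LEF factor that is also a target, differed by 1.5 ± 0.42 over the shared times (edgeR adjusted p = 0.787). At 24 h its NR digits measured 0.241, 1.32 and 0.539 CPM and its INT digits 1.72, 8.71 and 9.27 CPM, with no overlap (edgeR adjusted p = 0.313). At 14 d (NR 0.852, 1.1 and 0.933 CPM, INT 6.31, 3.62 and 2.33 CPM) they did not overlap either, and at 21 d they did. Wif1 differed by 0.75 ± 0.23, and at 21 d measured 41.7, 8.18 and 21.5 CPM in NR digits and 73.2, 50.6 and 80.8 CPM in INT digits. Over the shared times 35 of 49 members had a positive difference, with a median of 0.23 against -0.02 over all genes.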

How the data were processed

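Whole digit tips and macrophage cultures were profiled by poly(A) RNA sequencing. Per the labels and the study's methods, the authors aligned single-end reads with Bowtie to Ensembl transcripts of mm10 (GRCm38), and the deposited expected counts per gene came from RSEM 1.2.3. The deposited normalized TPM (signal unit) was scaled by the authors by median-by-ratio factors, so its totals differ between libraries, and was used here for levels and marker sums. Expected counts were rounded and tested with edgeR 4.0.16 (R 4.3.3, limma 3.58.1): TMM normalization, filterByExpr with a minimum count of 10, quasi-likelihood tests, Benjamini-Hochberg adjustment, and a call at adjusted p under 0.05 with more than 2-fold between mean normalized counts plus 1. Each comparison was fitted on its own digits; NR times shared 1 fit for time and phases. DESeq2 1.42.0 and other settings were alternatives. The scripts were tested on simulated data with 200 changed genes. At a log2 change of 1.5 the test over NR times recovered 87 of them. That of INT against NR over the shared times recovered 178, and that of the time course difference 0. At a log2 change of 3 these tests recovered 188, 199 and 156. Members and lists were chosen with earlier results of these data known. Members called in a comparison were named, with others where a group or contrast turned on them. Counting intervals are exact (95%) and cover counting error only. Gene positions follow GENCODE vM21. Macrophage libraries entered no comparison between digits. Replicate pairs differed beyond sampling noise, and no column lacked a sample (0).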

Additional observations from a re-analysis of the deposited data

Results flagged for a closer look

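Of the members, 46 could be examined at NR 7 d, the only group with more than 3 digits, for a single digit far from the others (Dixon's test, critical value 0.71 for 5 digits), and 5 were. Chance alone marks about 1 in 20. Wnt3 had its lowest value, 0 CPM, in replicate 2, where the others were at 4.55 to 5.62 CPM, and the coreceptor Lrp5 had its highest value, 284 CPM, in the same library, where the others were at 106 to 122 CPM. That library held counts in 22 of the 50 members. The ligand Wnt7a was highest in replicate 1 (2.03 CPM, others 0 to 0.268), Rspo1 in replicate 3 (2.68 CPM, others 0) and the Wnt deacylase Notum in replicate 5 (9.37 CPM, others 0 to 2.62).

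The cultured bone marrow-derived macrophages, which belong to no comparison above, came from young female C57BL/6 mice. M1 cells were treated with IFN-gamma and LPS, and M2 cells with IL-4. The labels give a time for M1 and M2 but call M0 baseline, so time in culture may differ as well. Some members had all 3 libraries of a polarized state above the 3 unstimulated (M0) libraries. Listed are those with at least 1 normalized TPM and more than 3 counts in every library of that state. In M1 cells the lowest library stood at 4.14 normalized TPM for Wnt5a, 1.57 for Wnt11, 24.4 for Fzd1, 5.65 for Fzd5 and 32.2 for Fzd7. In M2 cells it stood at 8.78 for Fzd1, 2.36 for Fzd2, 4.44 for Fzd5, 30.9 for Fzd7, 1.46 for Fzd8 and 2.70 for Wnt10b. Also in M2 cells it stood at 9.84 for Rspo2, 1.64 for Rspo3, 3.51 for Lgr4 and 2.33 for Lgr6. Of the inhibitors, the lowest M2 library stood at 29.4 for Sfrp1, 17.2 for Sfrp2, 7.61 for Sfrp4 and 26.3 for Dkk3. The highest M0 library stood at 12.1 for Fzd7, 5.75 for Sfrp1, 6.85 for Sfrp2 and 17.9 for Dkk3. For some others the gap was narrow, with the highest M0 library at 4.03 for Wnt5a, 4.21 for Fzd5 and 1.24 for Fzd8. Other members were lower in all 3 libraries of a state: Lrp6 measured 111 to 123 normalized TPM in the M0 libraries, 17.9 to 18.3 in the M1 and 28.3 to 33.7 in the M2 libraries. Lrp5 measured 32.7 to 34.9, 8.11 to 9.05 and 12 to 13.4 in the same order, and Dkk3 13.7 to 17.9 in M0 but 1.1 to 1.47 in M1 libraries. These are 3 libraries a state and the differences were not tested.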

How the results depend on the processing

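No call of a named member reversed its direction in any setting tried. The 8 members higher late than acutely in NR digits were each called whichever 1 of the 29 digits was left out, and the count ran from 8 to 13, the highest without the NR 7 d replicate 2. It was 13 by DESeq2, 13 without both the NR 7 d replicate 2 and the NR 14 d replicate 2, and 0 within the later label date period alone. These last settings, and the earlier period alone, were chosen after seeing the data. Across NR times the count of 5 became 8 with relative log expression normalization, 16 by DESeq2, 3 with the 17 digits above 67 percent only and 8 without both of those libraries. Leaving out 1 digit gave 3 to 9, the highest without the NR 7 d replicate 2 and the lowest without NR 0 h replicate 2 or 3, NR 12 h replicate 1 or 2, or NR 24 h replicate 1 or 2. For NR times against 0 h the count of 11 became 19 by DESeq2, 4 in a single fit of all digits (2 at 12 h and 1 at 24 h) and 4 in that fit with the label date period, and 1 to 13 leaving out 1 digit. Over INT time the count of 6 became 11 by DESeq2, and 4 to 8 leaving out 1 digit, with 8 without the INT 14 d replicate 1 and 4 without 6 digits in turn. For INT times against 0 h the count of 5 became 1 in a single fit of all digits and 1 in that fit with the period, and 0 to 6 leaving out 1 digit. For INT against NR at each time the count of 0 became 5 by DESeq2 and 0 to 2 leaving out 1 digit, with 2 without the INT 24 h replicate 1 and 1 without the NR 21 d replicate 1. Over the shared times and for the time courses it was 0 to 0. The share of all genes called moved with the setting too. Across NR times it was 7.6% in the main fit, 16.2% with relative log expression normalization, 29.8% by DESeq2 and 17.3% without both libraries. Late against acute it was 9.7% in the main fit, 15.4% by DESeq2 and 11% without both libraries. Over INT time it was 4.62% in the main fit, 9.28% by DESeq2 and 3.81% with the period as a term. For the counts over several times it was not taken in these other settings. The cause of these shifts was not tested. No paired analysis was possible because the labels give the digits no replicate numbers and the same animal mark, date and side recur at different times in 4 pairs of digits, so marks could not be tied to single mice. No fit with the exact label date as a block was run.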
